A study of Mus musculus with 6 samples.

Results

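The proteoglycans of the vessel wall described here are 10 genes, taken by symbol from the 55341 genes of the count table. The rule uses names only, and the set was proposed with earlier results of these data known. They are the small leucine-rich genes *Dcn*, *Bgn*, *Aspn*, *Lum*, *Fmod*, *Prelp* and *Ogn* and the large proteoglycan genes *Vcan*, *Acan* and *Hspg2*. All 10 were found in the table and all 10 passed the filter on low counts, as did 16017 genes in all. RNA from aortic vessels of 3 miRNA-26b-/- mice (libraries M2626, M2627 and M2628) and 3 miRNA-26b+/+ mice (M2629, M2630 and M2631) was sequenced, as 1 library per mouse. The mice were 8 weeks old and on chow diet. The labels give the strain as C57BL/6NCrl, while the study describes a C57BL/6 background set up from a mixed 129/Sv-C57BL/6 strain. In the miRNA-26b-/- mice the sequence of miRNA-26b within an intron of *Ctdsp1* had been removed with CreERT2 and tamoxifen, and the CreERT2 gene had then been bred out. The allele was made in embryonic stem cells of a 129/Sv line. The treatment of the miRNA-26b+/+ mice with tamoxifen is not given in the sources used here.

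Proteoglycans are proteins of the extracellular matrix that carry long sulfated sugar chains. The large ones fill the space between cells: versican binds hyaluronan and keeps the intima and media hydrated and swollen, and perlecan forms part of the basement membranes around endothelial and smooth muscle cells. The small leucine-rich ones bind collagen fibrils and set their spacing and width, and several also bind growth factors such as TGF-β. In arteries, the chondroitin and dermatan sulfate chains of versican and biglycan are known to retain lipoproteins.

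A microRNA acts on a transcript by pairing of its seed, bases 2 to 8, with a site in the 3′ UTR. The mature sequence of the deleted miRNA-26b-5p is shown with that of miRNA-26a-5p because both carry the same seed, in capitals, and the genes of miRNA-26a-5p are not deleted. The sequences are from RefSeq (GRCm38.p6). miRNA-26b-5p lies at chr1:74394324-74394344 on the forward strand, and miRNA-26a-5p is encoded on chromosomes 9 and 10.
miRNA-26b-5p: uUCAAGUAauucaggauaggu
miRNA-26a-5p: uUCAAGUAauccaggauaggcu

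Of the 10 genes, 2 held a site for this seed in their longest annotated 3′ UTR (GENCODE release M21, GRCm38). The search used the letters TACTTGAA (8mer), TACTTGA (7mer-m8) and ACTTGAA (7mer-A1) on the strand of the transcript, and a 7mer within an 8mer was not counted again. *Aspn* held an 8mer at chr13:49566680-49566687 on the forward strand, starting at base 49 of a 3′ UTR of 934 bases, and *Prelp* a 7mer-A1 at chr1:133912567-133912573 on the reverse strand, starting at base 33 of one of 2302 bases. Both are shown with the bases around them, and capitals mark the site.
*Aspn*: tacatttggaaTACTTGAActgtcctagta
*Prelp*: cctctgacagcACTTGAAggctggtggccc
An 8mer stood in 4.18% of the 21007 genes with an annotated 3′ UTR and a site of any of these kinds in 18.3%. Among the 13458 of them that were tested, the shares were 4.92% and 21.4%, so 2 of 10 is close to the background. The other 8 genes, *Vcan* included, hold none of these letters in the 3′ UTR searched. The deletion also removes the other arm of the hairpin, miRNA-26b-3p, and sites for its seed were not searched.

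The libraries held between 25706728 and 33345037 counts. The count table has 0 counts of *Mir26b* in every miRNA-26b-/- library and 0, 20 and 0 in M2629, M2630 and M2631, too few to check the genotypes. The labels give the cell type as aortic endothelium, whereas by the methods the arch and the thoracic part of the vessel were taken. The 8 smooth muscle markers took 32006 to 41797 CPM together (counts scaled to the same library total, the unit used throughout), and the 10 endothelial markers 539 to 1843 CPM, so transcripts of smooth muscle far outweighed those of endothelium. In such bulk libraries fewer cells of a type and less RNA per cell cannot be told apart.

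Together the 10 genes took between 1.21% and 1.36% of all counts. By mean CPM *Bgn* ranked 5 of the 16017 genes tested, with 5994 to 6793 CPM. *Hspg2* ranked 40, *Dcn* 74, *Ogn* 86 and *Prelp* 103, while *Acan*, best known from cartilage, ranked 5591. Levels were compared between genes per kb of merged exon, the length that the counting program used. On this scale *Bgn* came first with a median of 1073 CPM per kb, followed by *Ogn* (468), *Prelp* (280.5), *Dcn* (213), *Hspg2* (152), *Lum* (73.1), *Fmod* (39.0), *Aspn* (25.7), *Vcan* (9.93) and *Acan* (4.17). The ranges over the 6 libraries overlapped for the neighbours *Prelp* and *Dcn*, *Dcn* and *Hspg2*, and *Lum* and *Fmod*, and for no other neighbours. *Bgn* alone took 42.4% to 49.0% of the summed CPM per kb of the 10 genes, and the 7 small leucine-rich genes 91.4% to 94.3%.

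The place of *Dcn* rests on the length used. Its merged exons span 5838 bases and its longest coding transcript 1758 bases. Per kb of the longest coding transcript, a scaling added after the data were seen, *Dcn* stood second with a median of 707 CPM per kb, above *Ogn* in each of the 6 libraries. The ranges then overlapped for *Lum* and *Fmod* and for *Aspn* and *Vcan*. *Bgn* stood first and *Acan* last on both scales.

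**Figure D1:**
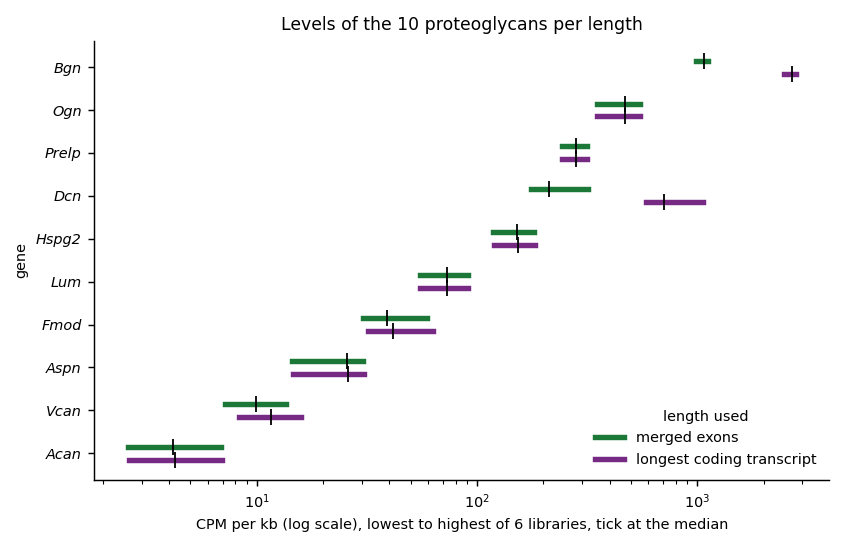
Level of each gene in CPM per kb (x axis, log scale) by gene (y axis), with bars from the lowest to the highest of the 6 libraries and a tick at the median. Green bars use the merged exons and purple bars the longest coding transcript. *Bgn* is first on both, and *Dcn* moves from a median of 213 to 707 CPM per kb.

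Between the genotypes, 1 of the 10 genes differed at an unadjusted p-value under 0.05 (edgeR's quasi-likelihood test, two-sided), *Vcan*, which was lower in miRNA-26b-/- mice. The share of all genes tested that passed this threshold was 6.47%, and 3.07% passed it with a lower level, so 1 of 10 is near the background. After Benjamini-Hochberg adjustment over the 16017 genes, 0 of the 10 had an adjusted p under 0.05, against 1 gene (0.00624%) of all. With DESeq2, *Vcan* had an adjusted p = 0.463. The log2 fold changes of the 10 genes ran from -0.49 to 0.25 with a median of -0.02, and 5 were above and 5 below 0, beside a median of 0.01 over all genes tested. The groups did not overlap for 1 of the 10, again *Vcan*, against 11.7% of all genes tested. An exact permutation test of 3 against 3 mice cannot give a p below 0.1.

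*Vcan* encodes versican, the large chondroitin sulfate proteoglycan that binds hyaluronan. It lies on the reverse strand of chromosome 13 from 89655312 to 89742509 (GRCm38). Its level was 103, 135 and 139 CPM in M2626, M2627 and M2628, and 148, 179.9 and 197 CPM in M2629, M2630 and M2631. Each miRNA-26b-/- library was below each miRNA-26b+/+ library, and the gap between the nearest, M2628 and M2629, was small beside the spread within either group. The means were 126 ± 19.6 and 175 ± 25.04 CPM (SD, n = 3 each), 72.0% of the miRNA-26b+/+ mean. The log2 fold change was -0.49 (SE 0.171, 95% interval -0.85 to -0.12, p = 0.012, adjusted p = 0.736 by quasi-likelihood), and the exact permutation test gave p = 0.1, the smallest it can give. Without M2626 it was -0.38 (adjusted p = 0.850) and without M2631 -0.39 (adjusted p = 0.983), and in neither fit did *Vcan* pass the unadjusted threshold, so either library decides that call.

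*Hspg2* encodes perlecan, the heparan sulfate proteoglycan of basement membranes (chromosome 4, 137468769 to 137570630, forward strand). It was measured at 1695, 1884 and 2402 CPM in the miRNA-26b-/- libraries and 1937, 2477 and 2589 CPM in the miRNA-26b+/+ libraries. M2626 and M2627 were below the 3 miRNA-26b+/+ libraries and M2628 was among them. The log2 fold change was -0.25 (SE 0.153, interval -0.57 to 0.08, adjusted p = 0.836), which does not pass either threshold, and the exact permutation test gave p = 0.2. It passed the unadjusted threshold without M2628 (-0.40, adjusted p = 0.3199) and without M2629 (-0.38, adjusted p = 0.872). Of all genes tested, 1692 of 15654 passed without M2628 and 838 of 15701 without M2629.

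*Acan* encodes aggrecan, the large proteoglycan that gives cartilage its resistance to compression (chromosome 7, 79053483 to 79115099, forward strand). Its level was low, at 19.4, 34.2 and 51.3 CPM in the miRNA-26b-/- libraries and 28.5, 24.9 and 33.8 CPM in the miRNA-26b+/+ libraries. The lowest and the highest of the 6 values were both in miRNA-26b-/- libraries, and the SD of log2 CPM was 0.705 there and 0.221 in the other group. The log2 fold change was 0.25 (SE 0.2999, interval -0.39 to 0.89, adjusted p = 0.934), and it turned to -0.10 without M2628. The 10 cartilage markers summed to 44.2, 69.9 and 119.5 CPM in M2626, M2627 and M2628. In the miRNA-26b+/+ libraries they summed to 72.1 to 84.8 CPM, so the sum was lowest and highest in the same libraries as *Acan*. Most of this sum was *Comp* (39.8, 54.5 and 110.2 CPM against 66.2 to 79.9 CPM). *Sox9* was instead lowest in M2631 (0.519 CPM) and highest in M2627 (7.98 CPM), with a log2 fold change of 1.39 (SE 0.748, adjusted p = 0.790). The median of the tested cartilage markers, in log2(CPM + 2) centred on the 6 libraries, was also lowest in M2631 (-0.43) and highest in M2627 (0.74). *Col2a1*, *Matn1*, *Col9a3* and *Cnmd* were at 0 in all 6 libraries. The part of these markers in the level of *Acan* was not tested.

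**Figure D2:**
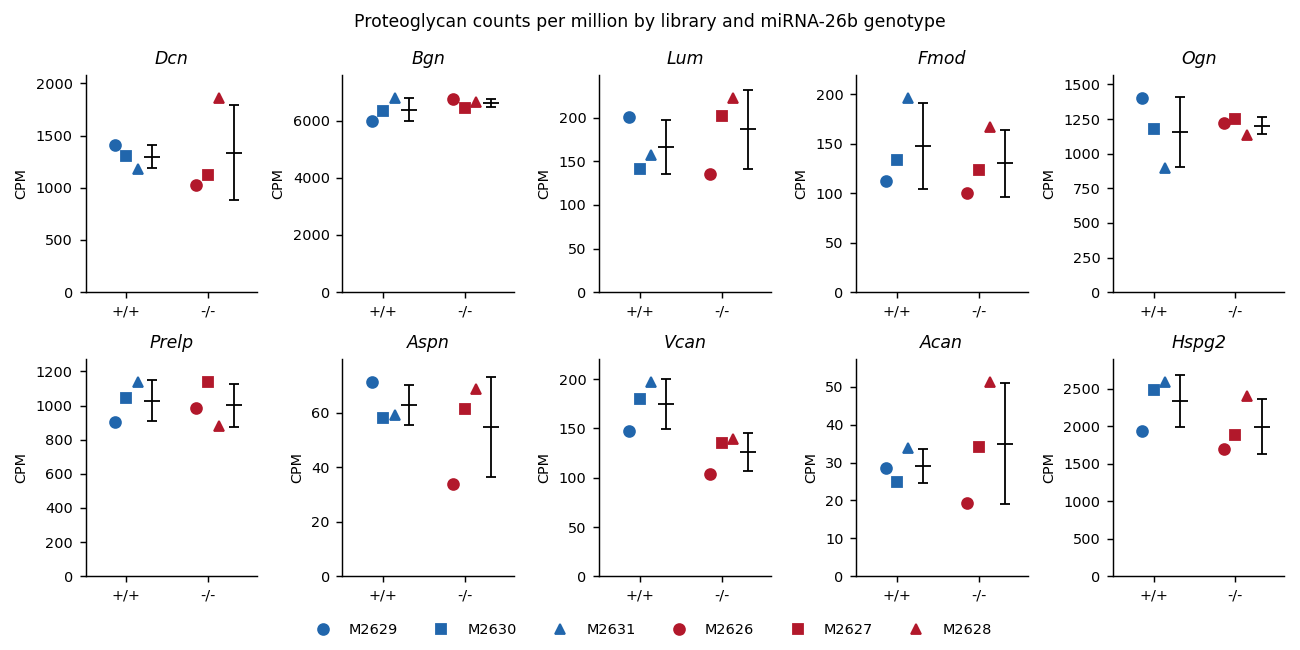
CPM of each of the 10 genes (y axes, from 0) by miRNA-26b genotype (x axes), with 1 point per library and the mean ± SD (n = 3) beside each group. *Vcan* is the 1 panel in which the miRNA-26b-/- points, at 103 to 139 CPM, all lie below the miRNA-26b+/+ points, at 148 to 197 CPM.

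*Dcn* (decorin) and *Bgn* (biglycan) are close relatives that carry chondroitin or dermatan sulfate chains and bind collagen fibrils. *Dcn* lies on chromosome 10 (97479609 to 97518143, forward strand) and was measured at 1029, 1122 and 1861 CPM in M2626, M2627 and M2628, and at 1409.7, 1303 and 1183 CPM in M2629, M2630 and M2631. M2628 was the highest of the 6 libraries and the other miRNA-26b-/- libraries were the lowest. Its log2 fold change was 0.03 (SE 0.182, interval -0.36 to 0.42, adjusted p = 0.993). Without M2628 it was -0.28 and passed the unadjusted threshold (adjusted p = 0.444), so this library sets its direction. In that fit 1692 of all 15654 genes tested passed.

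*Bgn*, on the X chromosome (73483602 to 73495933, forward strand), was the steadiest of the 10 genes. It was measured at 6748, 6442 and 6649.8 CPM in the miRNA-26b-/- libraries and at 5994, 6336 and 6793 CPM in the miRNA-26b+/+ libraries, a ratio of 1.13 between the highest and the lowest. The median of this ratio over the 7438 genes tested with a mean of at least 20 CPM was 1.58. The log2 fold change of *Bgn* was 0.04 (SE 0.114), and its 95% interval, -0.21 to 0.28, leaves room for a fall of at most 13.3% or a rise of at most 21.4%.

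*Aspn* (asporin) belongs to the same class and usually carries no sugar chain. It lies on chromosome 13 (49544443 to 49567565, forward strand) and holds the 8mer printed with the microRNA sequences. It was measured at 34.0, 61.6 and 68.6 CPM in the miRNA-26b-/- libraries and at 71.4, 57.9 and 59.4 CPM in the miRNA-26b+/+ libraries. M2626 was far below the other 5 libraries, which lay between 57.9 and 71.4 CPM. The log2 fold change was -0.21 (SE 0.231, interval -0.70 to 0.29, adjusted p = 0.932), and 0.02 without M2626. Among the 13458 genes tested that have an annotated 3′ UTR, the median log2 fold change was 0.02 for those with an 8mer and 0.02 for those with no site.

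*Lum* (lumican), *Fmod* (fibromodulin) and *Prelp* belong to the class that binds collagen fibrils during their assembly, lumican and fibromodulin often with keratan sulfate chains. *Lum* is the neighbour of *Dcn* on chromosome 10 (97565128 to 97572703, forward strand, 47.0 kb away). It was measured at 135, 201 and 222.5 CPM in the miRNA-26b-/- libraries and at 201, 141 and 157 CPM in the miRNA-26b+/+ libraries, and its log2 fold change was 0.15 (SE 0.188, adjusted p = 0.939). The lowest and the highest value were again M2626 and M2628.

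*Fmod* and *Prelp* lie 115.8 kb apart on chromosome 1 (*Fmod* 134037254 to 134048277, forward strand, and *Prelp* 133910304 to 133921414, reverse strand). *Prelp* lies 59.5 Mb from *Mir26b* on the same chromosome. *Fmod* was measured at 100.3, 124 and 167 CPM in the miRNA-26b-/- libraries and at 113, 134 and 196 CPM in the miRNA-26b+/+ libraries, with a log2 fold change of -0.20 (SE 0.222, adjusted p = 0.932). The values of the groups interleave, and M2631 was the highest.

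*Prelp* was measured at 983, 1136 and 883 CPM in the miRNA-26b-/- libraries and at 904, 1044 and 1139 CPM in the miRNA-26b+/+ libraries, with a log2 fold change of -0.06 (SE 0.1403, interval -0.36 to 0.24). Its exons share 350 bases (9.68%) with *Gm15851* on the other strand. Reads there were counted for both genes and without strand, so they cannot be told apart. *Gm15851* had 2676 to 4630 counts per library and *Prelp* 24629 to 37874. The groups overlapped for *Prelp*, as they did for the other small leucine-rich genes among the 10.

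*Ogn* (osteoglycin, or mimecan) is a small leucine-rich protein first known from bone, and it is the second of the 10 genes per kb of merged exon. It lies on chromosome 13 (49608046 to 49624501, forward strand) and was measured at 1224, 1252 and 1132 CPM in the miRNA-26b-/- libraries and at 1403, 1177 and 897 CPM in the miRNA-26b+/+ libraries. The miRNA-26b-/- libraries lay close together, within the wider range of the miRNA-26b+/+ libraries. The log2 fold change was 0.04 (SE 0.147, interval -0.27 to 0.36).

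**Figure D3:**
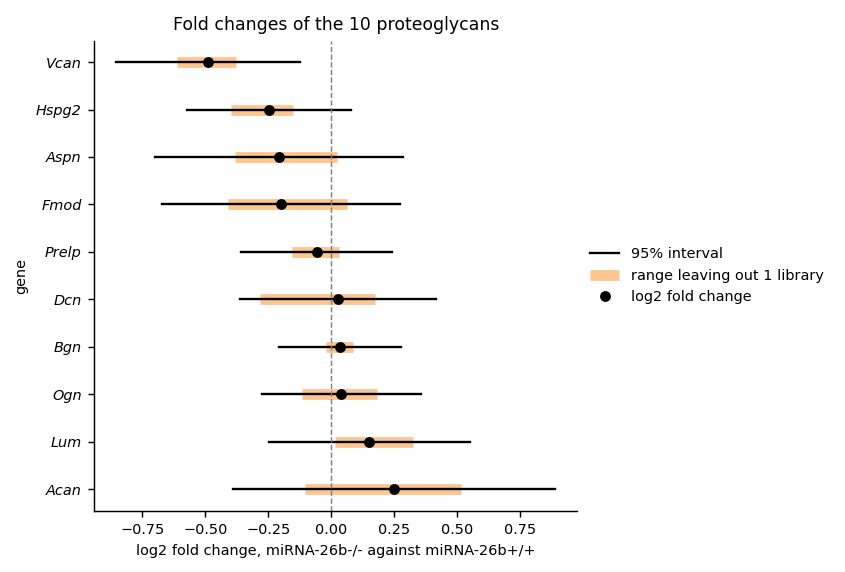
Log2 fold change of each of the 10 genes, miRNA-26b-/- against miRNA-26b+/+ (x axis), by gene (y axis), with 95% intervals as black lines and the range over fits that leave out 1 library as orange bars. The interval of *Vcan*, -0.85 to -0.12, is the only 1 of the 10 that lies wholly on one side of 0, while *Dcn* moves between -0.28 and 0.17 with the library left out.

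Over the libraries, the 10 genes did not keep a common profile. M2626 was the lowest of the 6 libraries for 7 of the 10 genes (*Dcn*, *Lum*, *Fmod*, *Aspn*, *Vcan*, *Acan* and *Hspg2*), while 18.8% of the 11680 genes tested with a mean of at least 5 CPM were lowest in it. M2628 was the highest for *Dcn*, *Lum* and *Acan*, and M2631 for *Bgn*, *Fmod*, *Prelp*, *Vcan* and *Hspg2*. The root mean square difference of centred log2(CPM + 2) was smallest for the pairs *Bgn* and *Prelp* (0.138), *Vcan* and *Hspg2* (0.153) and *Fmod* and *Hspg2* (0.162). The genes nearest to the median profile of the 10, by the same measure over 6 libraries, were *Rnf216* (0.0324), *Gm28047* (0.0343), *Peak1* (0.0350), *Nup93* (0.0416) and *Ddi2* (0.0438), the nearest 5 of 11670 genes searched.

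Markers of some cell types moved with the same libraries, but those of smooth muscle did not. The 8 smooth muscle markers summed to 39893, 35837 and 32006 CPM in M2626, M2627 and M2628, and to 35046 to 41797 CPM in the miRNA-26b+/+ libraries. The summed level of the 10 adventitial fibroblast markers was 2265 CPM in M2626, 2674 in M2627 and 3936 in M2628, and 3014 to 3332 in the miRNA-26b+/+ libraries. It was lowest and highest in the same libraries as *Dcn*, *Lum* and *Acan*, and 7 of the 10 markers were below 0 by log2 fold change with none past an unadjusted p of 0.05. Without M2628, 5 of the 10 passed as lower, and 1692 of the 15654 genes then tested passed in either direction. The sum of the 9 fibrillar collagen genes and their partners, led by *Col1a2* and *Col3a1*, was also lowest in M2626 and highest in M2628. It was 11159, 12465 and 20568 CPM in the miRNA-26b-/- libraries and 11569 to 14153 in the others, with M2627 within their range. By log2 fold change 5 of the 9 were above 0 and 4 below, and 0 passed. Without M2628 3 passed as lower, and without M2626, M2627 or M2631 1 passed as higher. *Col3a1*, which forms the fibrils of elastic vessel walls, was at 3346, 3809.5 and 6819 CPM in M2626, M2627 and M2628 and at 3348 to 4461 CPM in the others.

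The 10 endothelial markers summed to 539, 561 and 1843 CPM in M2626, M2627 and M2628 and to 1292 to 1713 CPM in the miRNA-26b+/+ libraries, and 9 of 10 were below 0 by log2 fold change, *Tek*, an angiopoietin receptor, past an unadjusted p of 0.05 (-0.998, adjusted p = 0.745, and past it in 8 of 19 alternatives). *Pecam1*, a junction protein of endothelium, was at 184, 176 and 724 CPM against 495, 622 and 582 CPM. *Hspg2* was likewise below the miRNA-26b+/+ libraries in M2626 and M2627 and among them in M2628. *Vcan* was below every miRNA-26b+/+ library also in M2628, where the endothelial sum was above all of them. The 8 macrophage markers summed to 295 to 858 CPM in the miRNA-26b-/- and 502 to 559.7 CPM in the miRNA-26b+/+ libraries, again highest in M2628. Without M2628, 6 of the 10 endothelial and 6 of the 8 macrophage markers passed the unadjusted threshold as lower. Without M2627, 1 macrophage marker passed as higher. The part of any of these markers in the levels of the 10 genes was not tested.

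Markers of tissue next to the aorta also differed. Of the 7 Schwann cell markers tested, 5 passed an unadjusted p of 0.05 as higher in miRNA-26b-/- mice, a threshold that 3.4% of all genes tested passed as higher, and leaving out 1 library gave 3 to 6. Their sums were 94.3 to 181 against 24.4 to 75.4 CPM. Of the sympathetic neuron markers 4 of 7 passed as higher, but they summed to 11.6, 306 and 15.3 CPM in M2626, M2627 and M2628 against 13.6, 59.2 and 23.6 CPM. As higher, 0 passed without M2627 or without M2631, 1 without M2629, 3 without M2630 and 6 without M2626 or without M2628. Without M2627, 1 passed as lower. The skeletal muscle markers summed to 32.99, 97.0 and 8.60 CPM against 6.65, 13.0 and 2.63 CPM, and 6 of 8 passed as higher. Of those then tested, 3 of 5 passed without M2626, 2 of 5 without M2627 and 8 of 8 without M2628. Leaving out any 1 miRNA-26b+/+ library gave 5 of 8. Cardiac muscle markers reached 321 CPM in M2627 and 259 CPM in M2630, against 9.14 to 57.6 CPM in the other 4 libraries, and 0 of 6 passed. Without M2627, 4 of the 5 then tested passed as lower. *Col11a2* of the cartilage markers passed as higher, and *Mkx* of the tendon and *Lrrn4* of the mesothelium markers as lower. Their levels were low, with means of 2.13, 0.889 and 1.48 CPM, and their lists did not move as one. By log2 fold change, 3 of 5 mesothelium markers tested were above 0, *Msln* at 1.19 (SE 0.685), and 2 of 5 tendon markers. With all 6 libraries, no smooth muscle, adipocyte, macrophage or lymphocyte marker passed. Of the 9 adipocyte markers, 8 were above 0 by log2 fold change (median 0.55). They summed to 1490, 3275 and 1110 CPM in M2626, M2627 and M2628 against 1467, 2021 and 695 CPM. Without M2628 3 of them passed as higher, and without M2630 1. *Col11a2* passed in 8, *Mkx* in 18 and *Lrrn4* in 11 of 19 alternatives. Without M2627 and M2630 together, a fit added after the data were seen, *Vcan* had a log2 fold change of -0.52 (adjusted p = 0.9996) and 0 of the 10 genes passed the unadjusted threshold. The part of these tissues in the comparison was not tested.

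**Figure D4:**
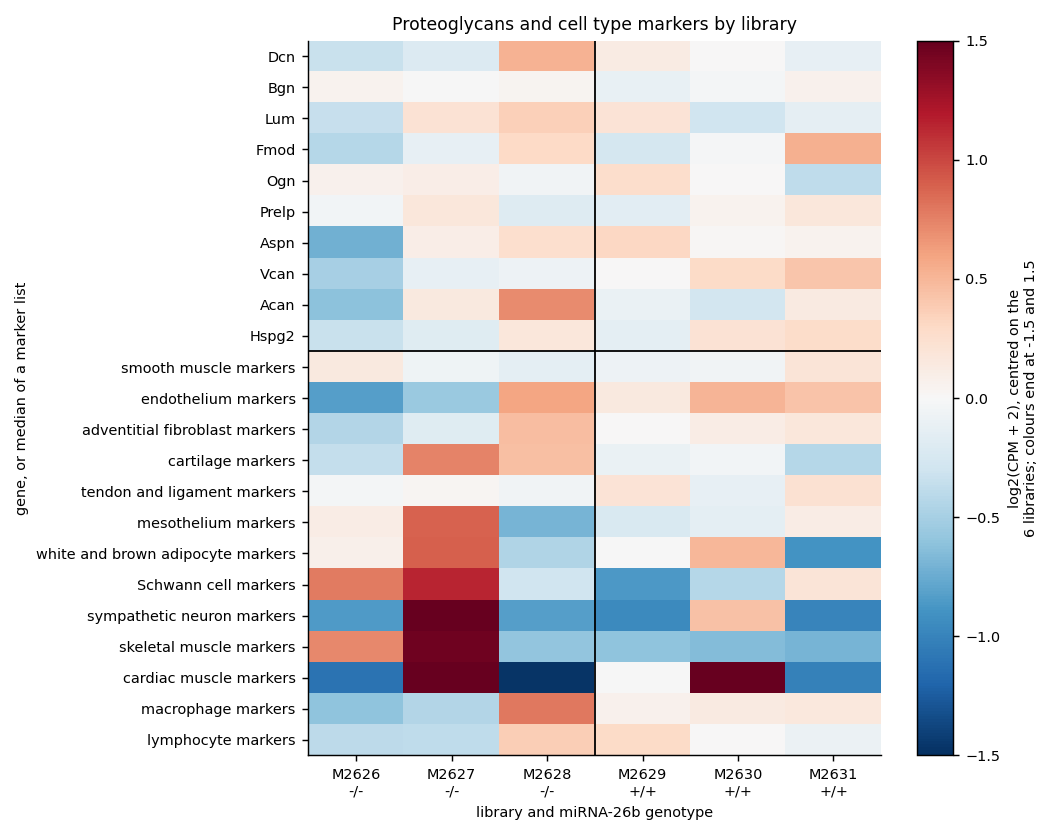
Centred log2(CPM + 2) in each library (columns, by miRNA-26b genotype) of the 10 genes (upper rows) and the median of each marker list (lower rows), with red above and blue below the mean of the 6 libraries. M2626 is the lowest library for 7 of the 10 genes and for the endothelial and adventitial fibroblast markers, and M2628 is red for *Dcn*, *Lum*, *Acan* and the same marker lists.

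Around the 10 genes, 9 lists of related genes held 109 genes, of which 92 were tested. At an unadjusted p under 0.05, 2 were higher and 4 lower in miRNA-26b-/- mice, 6.52% of them against the background of 6.47%, and 0 passed after adjustment. Their median log2 fold change was -0.09, beside 0.01 over all genes tested.

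Among the secreted proteases that cleave versican and aggrecan, 1 of 7 tested was higher, *Adamts15*. It was measured at 187, 154 and 191.5 CPM in M2626, M2627 and M2628 and at 114, 102 and 119 CPM in M2629, M2630 and M2631, so the groups did not overlap. Its log2 fold change was 0.65 (SE 0.155, adjusted p = 0.640), and it kept its direction and passed the unadjusted threshold in 19 of 19 alternatives. Its adjusted p over these ran from 0.0175, with DESeq2 and the 1 value under 0.05, to 0.9996. *Adamts1*, the protease of this list with the highest level, had a log2 fold change of -0.08 (SE 0.239) and ranged from 226 to 484 CPM.

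Of the enzymes that build and trim heparan sulfate, the chain type of perlecan, 17 of 24 were tested, 14 had a log2 fold change below 0, as did 7789 of all 16017 genes tested, and 2 passed the unadjusted threshold as lower, against 3.07% of all. Without M2627 or M2630 0 passed as lower, without M2626, M2629 or M2631 1, and without M2628 3. With M2628 left out, 1692 of all 15654 genes tested passed in either direction. *Glce*, the epimerase that turns glucuronic into iduronic acid, was at 29.2, 24.3 and 41.3 CPM against 44.3, 57.0 and 49.4 CPM, a log2 fold change of -0.69 (SE 0.236, adjusted p = 0.736), which did not pass without M2627 or without M2630. *Sulf1*, which removes sulfate groups outside the cell, was at 289, 325 and 453 CPM against 477, 419 and 460.5 CPM, and M2628 lay among the miRNA-26b+/+ libraries (log2 fold change -0.36, SE 0.1601, adjusted p = 0.748). It passed in 11 of 19 alternatives, and of the fits that leave out 1 library in that without M2628 alone. *Sulf2* had a log2 fold change of -0.16 (SE 0.145). The median of the list was -0.20.

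Of the proteoglycans at the cell surface, 1 of 13 tested passed, *Ptprz1*, a receptor phosphatase with chondroitin sulfate chains. It was measured at 183, 188 and 274 CPM in the miRNA-26b-/- libraries and at 333, 279.9 and 312 CPM in the miRNA-26b+/+ libraries, with a log2 fold change of -0.54 (SE 0.165, adjusted p = 0.734). It passed the unadjusted threshold in 19 of 19 alternatives, with adjusted p-values from 0.0288, without M2628 and the 1 value under 0.05, to 0.9996. Without M2628 3 genes of this list passed as lower, and without M2629 2. Of all genes tested, 1692 of 15654 and 838 of 15701 passed in these fits in either direction. *Cspg4* (NG2), a marker of mural cells, was at 651 to 695 CPM against 702 to 838 CPM and did not pass (log2 fold change -0.22, SE 0.127).

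Of the other secreted proteoglycans, 1 of 9 tested was lower, *Prg4* (lubricin), at 6.42 to 8.21 CPM against 10.7 to 16.4 CPM (log2 fold change -0.90, SE 0.3801, adjusted p = 0.741). It did not pass without M2626, M2627, M2629 or M2630, and 1 gene of this list passed as higher without M2626, M2628 or M2630. *Col18a1* and *Agrn*, which like perlecan are heparan sulfate proteoglycans of basement membranes, had log2 fold changes of -0.14 (SE 0.118) and -0.04 (SE 0.161). *Col18a1* was the most abundant gene of the 9 lists, with a mean of 2927 CPM.

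The sugars that link a chain to its protein are added by enzymes of which 1 of 7 was higher, *B4galt7*, at 12.5, 21.9 and 21.9 CPM against 12.01, 10.3 and 6.30 CPM (log2 fold change 0.98, SE 0.363, adjusted p = 0.736). It did not pass without M2627 or without M2631, and 2 genes of this list passed as higher without M2626. *Fam20b* and *Xylt1* of the same list had log2 fold changes of -0.16 (SE 0.188) and 0.43 (SE 0.319). None of the 15 chondroitin and dermatan sulfate enzymes, 10 hyaluronan and link protein genes, 6 sulfate supply genes and 8 other small leucine-rich genes tested passed the unadjusted threshold. Their median log2 fold changes were 0.03, -0.25, 0.02 and 0.10. Without M2628, 4 of the hyaluronan and link protein genes passed as lower, and 1692 of all 15654 genes tested passed in either direction. Without M2627, 1 of this list passed as lower and 1 as higher, and 898 of all 15598 genes tested passed. Leaving out 1 library gave at most 1 in either direction for the chondroitin enzymes and the small leucine-rich genes, and 0 for the sulfate supply genes. *Chpf* of the chondroitin enzymes, 1.08 Mb from *Mir26b*, had a log2 fold change of -0.11 (SE 0.141), *Chpf2* 0.29 (SE 0.156), *Hyal1* -0.15 (SE 0.1401), *Cemip2* -0.26 (SE 0.244), *Papss1* 0.15 (SE 0.210) and *Slc35b2* 0.22 (SE 0.204).

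**Figure D5:**
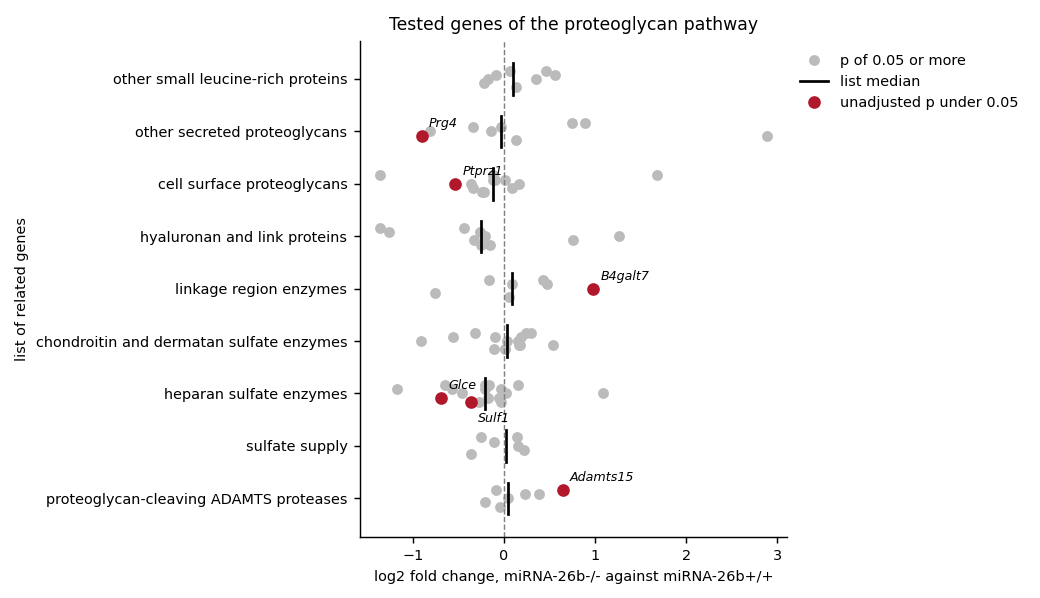
Log2 fold change, miRNA-26b-/- against miRNA-26b+/+ (x axis), of each tested gene in the 9 lists of related genes (y axis), with a black line at the median of each list. The 6 genes past an unadjusted p of 0.05 are red and named, *Adamts15* and *B4galt7* on the right and *Glce*, *Sulf1*, *Ptprz1* and *Prg4* on the left.

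The small leucine-rich genes stand in clusters in the genome, and the neighbours of the 10 genes were measured at other levels. On chromosome 10, *Kera* and *Epyc* follow *Dcn* and *Lum*. *Kera*, known from the cornea, had 0 counts in all 6 libraries, and *Epyc* had 0 to 159 counts. On chromosome 13, *Ecm2*, *Aspn*, *Omd* and *Ogn* lie in this order with gaps of 11.7, 14.9 and 15.2 kb. *Ogn* was at 897 to 1403 CPM, *Ecm2* at 255 to 336 CPM and *Omd* at 6.04 to 26.6 CPM. *Omd* was at 22.6, 23.4 and 26.6 CPM in the miRNA-26b-/- and 21.9, 21.4 and 6.04 CPM in the miRNA-26b+/+ libraries. Its groups did not overlap, as for 11.7% of all genes tested, and the difference did not pass the test (log2 fold change 0.56, SE 0.363, adjusted p = 0.851). On chromosome 1, *Optc*, 2.30 kb from *Prelp*, was at 65.8 to 139.7 CPM, with a log2 fold change of 0.35 (SE 0.2405, adjusted p = 0.858).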

How the data were processed

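Per the labels and the file headers, the authors' alignment was by STAR to GRCm38/mm10. They deposited raw counts per gene name from featureCounts 1.6.4 over exons of GENCODE M21, unstranded, where a read over the exons of more than 1 gene counts for all of them. A second deposited table holds the same counts for fewer genes, log2 CPM and the authors' own comparison (fold changes and p-values), and was not used. Replicates are separate mice. Genes entered the test with 2 or more counts in sum and over 1 CPM in 2 or more libraries (16017 genes). Differences between genotypes came from the quasi-likelihood F-test in edgeR (version 4.0.16, R 4.3.3, TMM factors, prior count 0.125), with Benjamini-Hochberg adjustment over all genes tested, and every adjusted p is from this test unless another tool is named. Alternatives used DESeq2 1.42.0, limma 3.58.1, other normalizations, filters and left-out libraries. Exact permutation tests, two-sided, used log2(CPM + 0.01). CPM is per library total. The procedure was tested on simulated counts with the same dispersion for every gene. These held no differences in tissue content between libraries, so they do not show how the test behaves where libraries differ in it.

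The 10 genes, the lists and the alternatives were chosen with earlier results of these data known. Besides the 10 genes, the text names the most abundant 2 genes of each other list and up to 4 with the smallest p under 0.05, small leucine-rich neighbours and the 5 nearest profiles. *Gm15851* and the cartilage markers at 0 were named after their values were seen. The listed gene *Tmem2* was matched by its RefSeq synonym *Cemip2*.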

Additional observations from a re-analysis of the deposited data

How the results depend on the processing

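In 19 of 19 alternatives *Vcan* was lower in miRNA-26b-/- mice, with an unadjusted p under 0.05 in 16, adjusted p-values from 0.241 to 0.9996 and log2 fold changes from -0.61 to -0.38. *Hspg2* was lower in 19 of 19, from -0.40 to -0.15, and passed in 2. None of the 10 genes had an adjusted p under 0.05 in any alternative. Leaving out 1 library gave 0 to 3 of the 10 genes, and 686 to 1692 of all genes tested, at an unadjusted p under 0.05. Leaving out M2627 and M2630 together gave 0 and 607. In at least 1 alternative the direction reversed for 8 of the 10 genes, for all but *Vcan* and *Hspg2*. With limma, *Dcn* was at -0.0215 (voom) and -0.0209 (trend), and *Lum* was -0.0044 without M2627 and M2630. Leaving out 1 library gave *Dcn* -0.28 to 0.17, *Bgn* -0.0198 to 0.0856, *Fmod* -0.41 to 0.0631, *Ogn* -0.11 to 0.18, *Prelp* -0.16 to 0.0297, *Aspn* -0.38 to 0.0239 and *Acan* -0.10 to 0.52. The mean share of *Bgn* in the summed level of the 10 genes was 45.6% per kb of merged exon, 51.1% by CPM and 59.9% per kb of the longest coding transcript. No paired analysis was run, because the libraries are from separate mice and the labels give no pairing between the genotypes. With 3 mice a group, the 95% intervals reach from a fall of 44.7% (*Vcan*) to a rise of 85.6% (*Acan*). The 10 genes had 498 or more counts in every library, and the effect of depth was not tested.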
